A study of Mus musculus with 15 samples.

Results

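Livers of Tlr4 mutant mice were compared with livers of Tlr4 wild-type mice after the same course of liver injury. The comparison covered 4 arrays of the mutant strain C3H/HeJ, labelled Tlr4P712H, and 4 arrays of the wild-type strain C3H/HeOuJ, out of 15 arrays in the series, with 1 liver RNA sample per array. Mice in both groups received 100 mg/kg of the carcinogen DEN (diethylnitrosamine) at 12 weeks of age and 0.50 ml/kg of the liver toxin CCl4 (carbon tetrachloride) at 13 and at 15 weeks, and were killed 48 hours after the last dose. The labels give the mice as male and 15 weeks old, except that mutant array 8 has no sex given. The other wild-type arrays served as reference levels: 3 from untreated C3H/HeOuJ livers, and 4 from C3H/HeOuJ mice that had the same injury after 2 weeks of ampicillin, neomycin, metronidazole and vancomycin in drinking water from week 10.

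Several features of the design limit the comparison. Every mutant array came from C3H/HeJ and every wild-type array from C3H/HeOuJ, so the Tlr4 change and any other difference between these substrains cannot be told apart. No untreated mutant liver was analysed here, so a difference that was present before injury and one that arose with it cannot be told apart either. The labels do not say that arrays came from separate animals or that animals were pooled, so the p-values measure the spread between these samples. The mutation is carried in every cell of the mouse, not in 1 cell type.

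Tlr4 is the receptor for lipopolysaccharide, a component of the outer membrane of Gram-negative bacteria that reaches the liver from the gut through the portal vein. In the liver it is present on Kupffer cells, the resident macrophages of the sinusoids, and also on stellate cells, endothelial cells and hepatocytes. Ligand binding needs the co-receptors Ly96 and Cd14 and leads through the adaptors Myd88 and Ticam1 to NF-kB and to interferon regulatory factors. The P712H change lies in the cytoplasmic signalling domain and leaves C3H/HeJ mice unresponsive to lipopolysaccharide, a textbook property that was not measured here.

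Of 18193 gene symbols with a probe set of their own on the array, 9482 genes reached log2 4 on at least 3 of the 15 arrays and were tested. A gene at that level only on the arrays of 1 group was kept through that group, which favoured a difference in its direction. Values are log2 GCRMA levels, on which 1 unit is a doubling, and a gene is called higher or lower where limma's adjusted p was under 0.05. By that rule 1668 genes (17.6%) were lower and 1249 (13.2%) were higher in the mutant, together 2917 (30.8%), against a median difference of 0.02 over all tested genes. The calls split 42.8% higher, which rose to 50.5% with arrays centred on their medians and to 55.3% after quantile normalisation. The lower side held the larger changes: 202 genes were lower and 33 higher by at least 4-fold. For 2946 genes (31.1%) the 4 mutant and 4 wild-type arrays did not overlap. Correlations between arrays ran from 0.981 to 0.993 within the wild type, 0.978 to 0.99 within the mutant and 0.942 to 0.966 between them. RNA integrity controls moved with genotype: the log2 difference between the 3' and 5' Gapdh control probe sets was 0.86 to 1.15 on the wild-type arrays and 1.4 to 1.86 on the mutant arrays, and that for Actb 2.25 to 2.76 and 3.07 to 3.71. Untreated arrays stood at 1.42 to 1.6 for Gapdh and at 3.63 to 4 for Actb. With the Gapdh difference as a covariate, chosen after seeing the data, 1160 genes were lower and 757 higher. Counts below that this covariate moved by more than 1.5 times are given with their value under it. Calls on genes named below that it ended are marked. Counts of called members in the lists below are to be read against 17.6% lower and 13.2% higher over all genes.

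**Figure D1:**
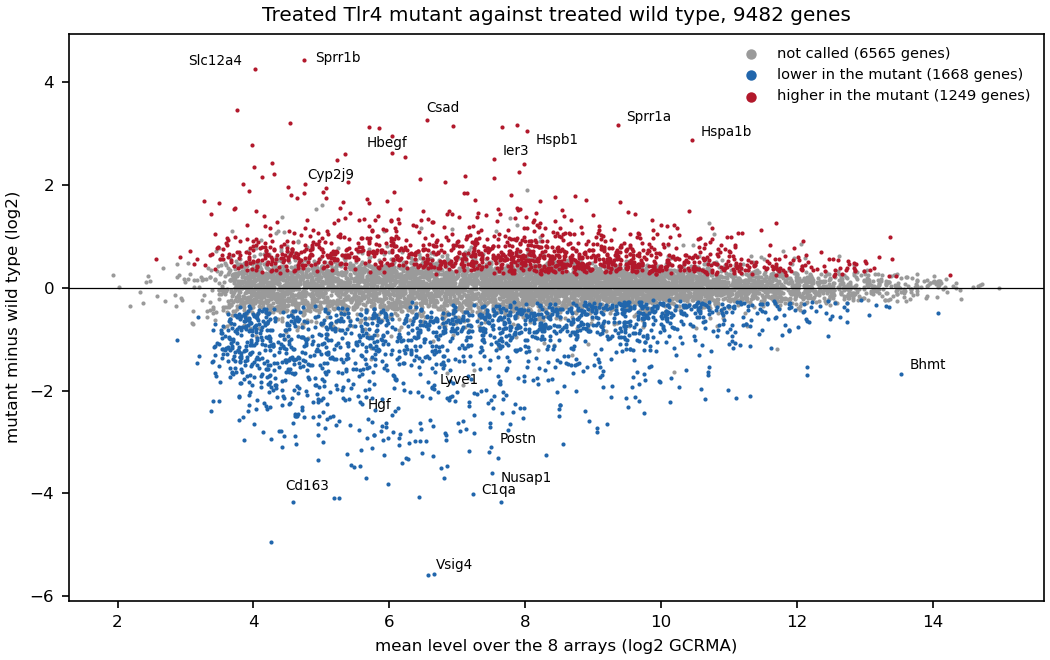
Each point is 1 of 9482 genes, with its mean log2 level over the 8 arrays on the horizontal axis and the mutant minus wild-type difference in log2 on the vertical axis; blue points were called lower, red points higher and grey points were not called. The blue cloud reaches far below -2 while few red points pass 2, and labels mark some of the genes with large differences.

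The receptor and its partners were examined first. Tlr4 itself was below the filter: its values lay at 3.22 to 3.67 on the wild-type and 1.84 to 2.91 on the mutant arrays, all close to background, so the transcript could not be assessed, and a probe set cannot see a single amino acid change. Ly96, the lipopolysaccharide-binding partner of Tlr4, stood at 4.76, 4.28, 4.24 and 4.53 on the wild-type and 5.62, 4.3, 4.15 and 4.04 on the mutant arrays. The groups overlapped, and the difference of 0.08 (SE 0.27) did not pass (adjusted p = 0.863). Cd14, the co-receptor that hands over lipopolysaccharide, was near background in untreated liver (2.49 to 2.63), at 8.15, 7.9, 7.64 and 7.45 on the treated wild-type arrays and at 8.98, 8.28, 7.94 and 8.2 on the mutant arrays. These overlapped too (difference 0.56, SE 0.24, adjusted p = 0.0943; with the Gapdh covariate 0.82 and 0.0463). Lbp, the serum protein that carries lipopolysaccharide and is made by hepatocytes, was at 7.52, 7.27, 8.05 and 7.51 on the wild-type arrays and at 9.53, 8.75, 8.76 and 8.36 on the mutant arrays. All mutant arrays lay above all wild-type arrays, 2.4-fold higher (adjusted p = 0.00657), and untreated arrays stood at 8.46 to 8.72. Ly86, the partner of the Tlr4 relative Cd180 on myeloid and B cells, went the other way, from 8.25, 7.11, 7.74 and 7.11 to 4.26, 4.25, 4.59 and 4.11. This was a 9.5-fold lower level with no overlap (adjusted p = 1.81e-06). In the list of 17 measured genes of lipopolysaccharide recognition and Toll-like receptor adaptors, 5 were higher (Lbp, Tab2, Myd88, Irak1 and Irf3). Of the others 2 were lower (Ly86 and Tlr1) and 10 not called, with a median difference of 0.30. Over all genes 13.2% were called higher and 17.6% lower. The higher count was 3 without array 5, 7 or 8: Myd88 (difference 0.46) lost its call without array 5, 7, 8, 9 or 11 (adjusted p 0.102 to 0.134) and Irf3 (difference 0.3) without array 5, 6, 7, 8 or 10 (adjusted p 0.0576 to 0.11), and both with the Gapdh covariate.

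Macrophage genes were among the largest decreases. Of 13 measured Kupffer cell markers, 9 were lower, 1 was higher and 3 were not called, with a median of -3.05; the 17.6% of all genes called lower is the share to read this against. Csf1r, the receptor for the macrophage growth factor CSF1, stood at 10.72, 10.14, 10.73 and 10.27 on the wild-type arrays and 7.72, 7.73, 7.54 and 7.65 on the mutant arrays. The groups were far apart, with a difference of -2.81 (SE 0.21, adjusted p = 5.88e-07), 6.99-fold lower in the mutant. The mutant arrays were also below the untreated (8.33 to 9.36) and the antibiotic arrays (9.33 to 9.87). Clec4f, a galactose-binding lectin of rodent Kupffer cells, was at 7.96, 7.04, 7.35 and 6.56 on the wild-type and 2.48, 3.48, 3.17 and 3.38 on the mutant arrays. All 4 mutant values fell under log2 4, the level treated here as background, so the fold is a lower bound, taken with such values set to 4; the decrease was at least 9.36-fold (adjusted p = 1.15e-05), and untreated livers had 5.27 to 7.54. Cd163, the haemoglobin scavenger receptor, was at 7.7, 7.29, 6.99 and 7.26 and at 3.13, 2.76, 4.31 and 2.64, at least 9.4-fold lower (adjusted p = 2.35e-06). Array 10 was the highest of the mutant arrays and still below every wild-type array. Adgre1, a surface antigen of mouse macrophages, also fell without overlap (at least 9.73-fold, adjusted p = 2.37e-07). In a bulk liver sample, fewer cells of a type and less RNA per cell cannot be told apart.

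Genes shared by most macrophages moved with the Kupffer markers. Of 18 measured genes for complement C1q, Fc receptors and myeloid adaptors, 17 were lower, with a median of -2.67, and Lcp1 was not called. C1qa, a chain of the first complement component, was at 9.96, 9.24, 9.02 and 8.78 on the wild-type arrays and 5.23, 5.23, 5.2 and 5.25 on the mutant arrays. The mutant values were nearly identical to each other and within the untreated range of 5.02 to 7.31; the decrease was 16.2-fold (adjusted p = 1.98e-05). Fcgr3, a low-affinity receptor for immunoglobulin G, went from 8.31, 7.18, 8.41 and 7.65 to 4.73, 4.18, 4.35 and 4.65, 10.7-fold lower with no overlap (adjusted p = 7.7e-06). The summed level of these 18 genes was log2 12.98 to 13.27 on the wild-type, 11.42 to 11.54 on the mutant, 10.98 to 11.44 on the untreated and 12.11 to 12.54 on the antibiotic arrays.

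Genes of recruited monocytes and scar-associated macrophages were split. Of 16 measured members 12 were lower and 2 higher (median -1.70). Ccr2, the chemokine receptor that brings monocytes into injured tissue, was at 5.78, 5.54, 6.14 and 6.11 on the wild-type arrays and 2.66, 3.25, 2.68 and 3.42 on the mutant arrays. The mutant and the untreated arrays (0.88 to 1.84) were all under 4; the decrease from the wild type was at least 3.71-fold (adjusted p = 1e-06). Lyz2, the lysozyme of macrophages and neutrophils, fell from 10.65, 9.96, 11.24 and 10.28 to 8.11, 8.02, 7.1 and 8.3, 6.27-fold (adjusted p = 0.000495). Cd9, a tetraspanin found on scar-associated macrophages and on many other cells, was higher instead, at 10.79, 10.73, 10.09 and 10.32 on the wild-type and 11.54, 11.01, 11.65 and 11.69 on the mutant arrays. All mutant arrays lay above all wild-type arrays (difference 0.99, SE 0.21, adjusted p = 0.00289). Emp1, an epithelial membrane protein, was higher by 1.06 with overlapping arrays (adjusted p = 0.0488), a call that was lost without any one of arrays 4, 5, 7, 8, 9 and 11 (differences 0.87 to 1.06). Lgals3 and Cd68, which are used as macrophage markers, were not called: Lgals3 differed by 0.86 (SE 0.34, adjusted p = 0.0718; 0.0409 without array 10) and Cd68 by 0.02 (SE 0.28, adjusted p = 0.959). Both stood far above untreated liver on every treated array: Cd68 was at 9.72, 8.98, 9.37 and 9.11 on the wild-type and 9.72, 8.74, 9.41 and 9.41 on the mutant arrays, against 2.6 to 3.05 untreated. Cfp, which encodes properdin, was the higher Kupffer list member (0.85, adjusted p = 0.0302), but its 2 kept probe sets were called in opposite directions, and the call was lost with the Gapdh covariate (0.59, adjusted p = 0.209) and without array 5, 7 or 8.

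Lysosomal genes did not follow, and the share called lower was near the 17.6% of all genes. Over all genes 13.2% were called higher. Of 18 measured lysosomal enzymes and cathepsins 4 were lower and 1 higher, with a median of 0.00; 1 was lower with the Gapdh covariate and 2 without array 8 or 9, and 3 were higher without array 4 or with arrays centred and 0 without array 7. The higher one was Ctsz. Ctss, a cathepsin largely restricted to antigen-presenting cells, was among the lower ones, from 12.33, 12.08, 12.27 and 12.02 on the wild-type to 9.83, 9.99, 9.92 and 10.42 on the mutant arrays. The groups were well separated, 4.39-fold (adjusted p = 3.94e-06). Other blood-cell markers were thinly represented above the filter. Neutrophils and B cells had 2 measured genes each and platelets and mast cells 1 each, so calls on them do not speak for the cell types. The neutrophil and mast cell genes reached log2 4 mainly on the treated wild-type arrays, so the filter itself favoured a lower mutant level. The neutrophil genes S100a8 and S100a9, the platelet chemokine Pf4, the mast cell receptor Kit and the B cell genes Bank1 and Ighm were lower (the last pair not when values under 4 were set to 4), and 4 of 5 MHC class II and dendritic cell genes were lower. The T and NK cell chemokine Ccl5, erythroid Alas2 and pancreatic Cela1 were not called (Ccl5 was higher by 1.38, adjusted p = 0.0744, and 0.0345 and 0.0398 without array 9 and array 10), and no skeletal muscle marker passed the filter. S100a8, a subunit of calprotectin, was at 6.52, 5.11, 5.8 and 5.93 on the wild-type and 4.05, 2.67, 3.37 and 3.45 on the mutant arrays, at least 3.55-fold lower without overlap (adjusted p = 4.83e-05).

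Sinusoidal endothelial genes were lower as a group but by less. Of 19 measured members 18 were lower (15 with the Gapdh covariate and 17 after quantile normalisation), with a median of -0.95. Lyve1, a hyaluronan receptor of sinusoidal and lymphatic endothelium, was at 7.45, 7.75, 7.59 and 7.62 on the wild-type arrays and 4.98, 5.48, 5.64 and 6.52 on the mutant arrays. No arrays overlapped, the mutant ones spread more widely, and the difference was -1.95 (SE 0.35, adjusted p = 0.000908). Stab2, a scavenger receptor of the same cells, was at 8.36, 7.8, 8.37 and 8.08 and 7.5, 6.96, 6.82 and 6.97, 2.12-fold lower (adjusted p = 0.000302). Its mutant arrays were below the untreated (7.99 to 8.3) and antibiotic arrays (8.04 to 8.48) as well. Tek, the angiopoietin receptor, was 2.7-fold lower (adjusted p = 3.62e-05). Vwf, a gene of larger vessels, was the member not called (-0.07, SE 0.25, adjusted p = 0.858).

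Among 14 measured angiocrine and growth factor genes, 6 were lower (Axl, Hgf, Rspo3, Kitl, Pdgfa and Bmp2) and Vegfa was higher. Hgf, the hepatocyte mitogen made by stellate and endothelial cells, was at 6.9, 6.82, 6.57 and 6.44 on the wild-type arrays and 4.74, 3.85, 4.3 and 4.91 on the mutant arrays. The mutant values lay below those of all other groups (untreated 4.94 to 5.4, antibiotic 6.09 to 6.95), at least 4.58-fold under the treated wild type (adjusted p = 8.33e-06). Rspo3, which raises Wnt signalling in central hepatocytes, was at 5.46, 5.37, 5.18 and 5.21 and 3.85, 3.05, 3.52 and 4.26. No arrays overlapped, and the decrease was at least 2.36-fold (adjusted p = 8.49e-05). Met, the receptor for Hgf, was at 10.92, 11.03, 11.12 and 11.22 on the wild-type and 11.21, 11.19, 11.06 and 10.94 on the mutant arrays and was not called (difference 0.03, SE 0.12, adjusted p = 0.882). Vegfa, the main growth factor for endothelium, was higher by 0.54 (SE 0.12, adjusted p = 0.00318).

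Most stellate cell and matrix genes were lower. Of 15 measured stellate cell and contractile genes 14 were lower (12 with arrays centred and 12 with the Gapdh covariate; median -1.38), and Tpm1 was not called. Tagln, an actin-binding protein of contractile cells, was at 7.96, 6.85, 7.09 and 7.05 on the wild-type arrays and 4.87, 4.76, 4.32 and 4.26 on the mutant arrays. The mutant arrays were lower without overlap, 6.43-fold (adjusted p = 3.67e-05), and above the untreated ones (2.12 to 2.36). Lrat, which stores retinol in quiescent stellate cells, was also lower, at 7.44, 7.31, 7.52 and 7.77 on the wild-type and 6.58, 5.62, 5.29 and 6.6 on the mutant arrays (2.8-fold, adjusted p = 0.0025). Pdgfra, a receptor of mesenchymal cells, fell 3.9-fold (adjusted p = 3.86e-06) and Pdgfrb, the main mitogen receptor of stellate cells, 2-fold (adjusted p = 0.000107).

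Of 13 measured collagen genes 10 were lower, with a median of -1.79. Col1a1, a chain of fibrillar type I collagen, was at 6.56, 7.34, 7.87 and 7.33 on the wild-type arrays and 4.46, 5.81, 3.71 and 5.19 on the mutant arrays. Array 9 was the highest and array 10 the lowest of the mutant, all below the wild type; the decrease was at least 5.32-fold (SE 0.41, adjusted p = 0.000491). Untreated arrays were at 1.76 to 2.41, so the mutant livers stood above untreated ones. Col6a3, a chain of microfibrillar collagen, went from 8.16, 7.79, 8.36 and 8.04 to 4.93, 5.08, 4.62 and 4.84, 9.34-fold (adjusted p = 5.04e-06), with no overlap. Col3a1 was 3.97-fold lower (adjusted p = 0.000519), while Col12a1, Col16a1 and Col18a1 were not called; Col12a1 was called lower without array 4 (adjusted p = 0.0168).

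Matrix enzymes and glycoproteins followed the collagens. Among 14 measured proteases, inhibitors and crosslinking enzymes 11 were lower, with a median of -1.48. Among 15 proteoglycans and glycoproteins 12 were lower (11 with arrays centred, 9 after quantile normalisation), with a median of -1.18. With values under 4 set to 4 these medians were -0.75 and -0.97. The filter favoured a lower level for members that reached log2 4 mainly on the treated wild-type arrays. Over the alternatives that left no array out, the lower counts ran from 5 to 15 and from 7 to 14. Timp1, an inhibitor of matrix metalloproteinases, was at 5.66, 4.71, 6.22 and 5.03 on the wild-type and 3.88, 3.09, 2.23 and 3.1 on the mutant arrays. The mutant arrays were all under 4, at least 2.65-fold lower (adjusted p = 0.000554). Serpinh1, the collagen chaperone, fell from 9.09, 9.15, 9.28 and 8.85 to 6.97, 6.83, 6.66 and 6.55, 5.05-fold (adjusted p = 2.67e-06). Postn, a matrix protein of activated fibroblasts, was 8.59-fold lower (adjusted p = 2.93e-05) and reached 5.58, 6.23, 5.83 and 6.16 on the mutant arrays, within the untreated range of 4.44 to 6.69. Mmp14, a membrane protease of many cell types, was not called (0.29, adjusted p = 0.187). The summed level of the 18 myeloid genes given above moved in the same direction as the endothelial, stellate and matrix lists, and its part in those differences was not tested.

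**Figure D2:**
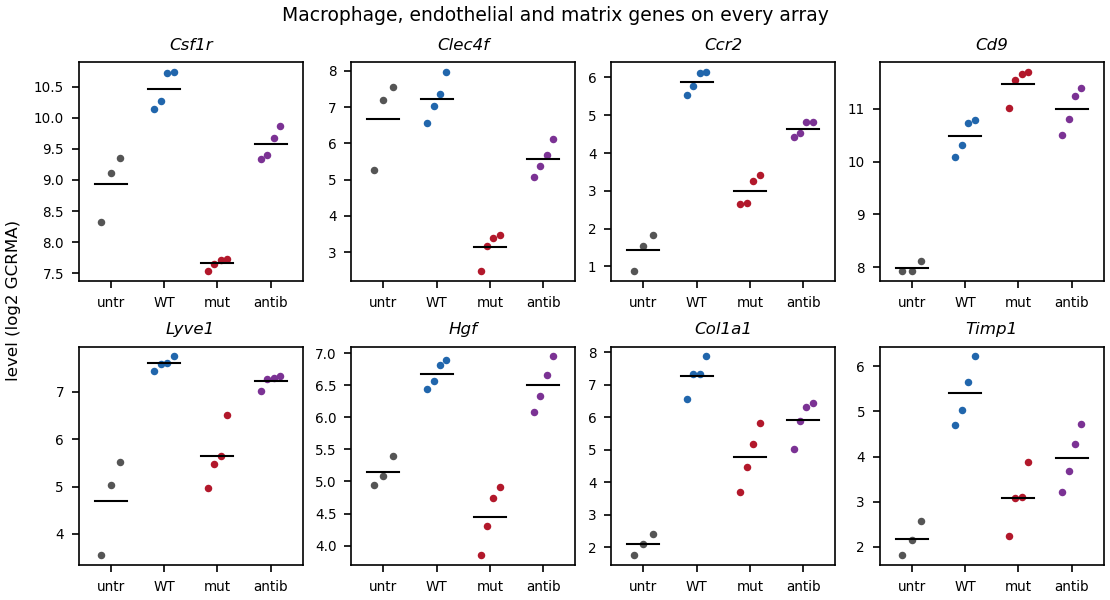
Log2 GCRMA level on every array for 8 genes; the groups are untreated wild type (untr, 3 arrays), treated wild type (WT, 4), treated mutant (mut, 4) and antibiotic plus treatment (antib, 4), and bars are group means. Mutant arrays lie below all treated wild-type arrays in each panel but that of Cd9, where they lie above, and Csf1r, Clec4f and Hgf are below the untreated arrays too.

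Most measured genes of the NF-kB list, which holds subunits beside targets, were not called. Its counts stand beside 17.6% of all genes called lower and 13.2% called higher. Of 14 measured NF-kB subunits, feedback genes and adhesion targets 2 were lower (Vcam1 and Tnip1), 1 (Ikbkg) was higher and 11 were not called (median 0.14); 1 was lower with the Gapdh covariate or without any one of arrays 5 to 11, 2 were higher without array 5, 9 or 10 and 3 after quantile normalisation. The call on Tnip1 (-0.38) was lost without any one of the 8 arrays (adjusted p 0.0566 to 0.122) and with the Gapdh covariate (0.277). Nfkbia, the inhibitor that NF-kB induces against itself, was at 11.47, 11.42, 11.26 and 11.47 on the wild-type and 11.61, 11.75, 11.34 and 11.47 on the mutant arrays. The groups overlapped (difference 0.14, SE 0.11, adjusted p = 0.376), as they did for the leukocyte adhesion molecule Icam1 (0.14, SE 0.19, adjusted p = 0.615). Vcam1, a second adhesion molecule, was lower, from 9.01, 8.69, 8.55 and 8.51 to 6.74, 6.21, 7.14 and 6.52, 4.1-fold with no overlap (adjusted p = 0.00019). Tnf, Il1b, Il6 and Ccl2, the cytokines most tied to lipopolysaccharide, were below the filter. Tnf was at 1.93 to 2.13 on the wild-type and 1.95 to 2.56 on the mutant arrays. In the same order Il6 was at 1.47 to 1.74 and 1.3 to 1.7. Il1b was at 2.55 to 2.92 and 2.62 to 2.81, and Ccl2 at 3.26 to 3.81 and 2.81 to 3.07. All these values were under 4, so a difference in these transcripts could not be assessed. Of 13 measured cytokines and chemokines 5 were lower (Cxcl14, Ccl6, Csf1, Cxcl16 and Il18) and 8 were not called. The Gapdh covariate left 3 lower and ended the calls on Csf1 (adjusted p = 0.0989) and Il18 (0.11). Without array 5 or 11 Il18 was not called either (adjusted p 0.0612 to 0.0674). Cxcl14 was at 7.32, 7.51, 8.08 and 7.44 on the wild-type and 5.39, 4.85, 3.88 and 4.84 on the mutant arrays, at least 7.04-fold lower (adjusted p = 3.87e-05), and Ccl6, a macrophage chemokine, 6.28-fold (adjusted p = 8.79e-06). Neither gene's arrays overlapped.

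Acute-phase genes varied widely within both groups, and both of their called shares were below the 17.6% lower and 13.2% higher of all genes. Of 25 measured members 3 were lower and 2 higher; none was called with the Gapdh covariate (0 lower, 0 higher), the lower count was 0 without array 6 or 11 and 1 without array 4, 7 or 10, and the higher count 0 without array 8, 1 without array 4, 5 or 9 and 4 without array 10. Saa1, a serum amyloid made by hepatocytes, was at 11.22, 10.25, 14.24 and 13.48 on the wild-type and 12.71, 11.67, 10.52 and 9.53 on the mutant arrays. Wild-type arrays 6 and 7 were the highest and arrays 5 and 11 the lowest, and the groups overlapped in part (difference -1.19, SE 0.88, adjusted p = 0.33). Saa1 and Saa2 are near-identical, and their signals may not be separate. Hp, which encodes haptoglobin, differed by 0.07 (SE 0.14, adjusted p = 0.744).

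Of 28 measured interferon-stimulated genes 11 were lower and 4 higher (median -0.01), beside 17.6% and 13.2% of all genes, so the share called higher was near that of all genes; 5 were lower with the Gapdh covariate, 7 were higher after quantile normalisation, and 2 were higher without array 6, 7, 9 or 11. Ifit2, a binder of foreign RNA ends, was at 6.5, 7.06, 6.34 and 6.29 on the wild-type and 3.71, 3.82, 4.06 and 3.93 on the mutant arrays, at least 5.78-fold lower without overlap (adjusted p = 7.7e-05). Rsad2, the antiviral enzyme viperin, was higher, at 4.55, 4.61, 4.93 and 4.92 and 6.37, 5.51, 5.46 and 5.83, 2.06-fold (adjusted p = 0.00211). Ifit1, a close relative of Ifit2, differed by 0.01 (SE 0.25, adjusted p = 0.974). The 3 measured genes of the interferon-inducible p200 cluster on chromosome 1 were all lower, with a median of -4.95. With values under 4 set to 4 this median was -2.74, beside -2.81 for the Kupffer list. Mndal was at 9.33, 9.37, 9.56 and 9.52 on the wild-type and 2.87, 2.93, 6.58 and 3.15 on the mutant arrays, at least 27.8-fold lower (adjusted p = 1.43e-05), with array 10 well above the other mutant arrays. Ifi202b, at 6.85, 6.58, 6.67 and 6.87 and 1.07, 1.27, 3.06 and 1.78, was at least 6.7-fold lower (adjusted p = 5.88e-07). Ifi207 was at 5.3, 6.63, 5.74 and 6.2 on the wild-type and 3.44, 3.92, 3.41 and 4.84 on the mutant arrays. Its groups did not overlap (at least 3.38-fold, adjusted p = 0.000196). Genes of this cluster are near-identical copies, so 1 probe set may read several.

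**Figure D3:**
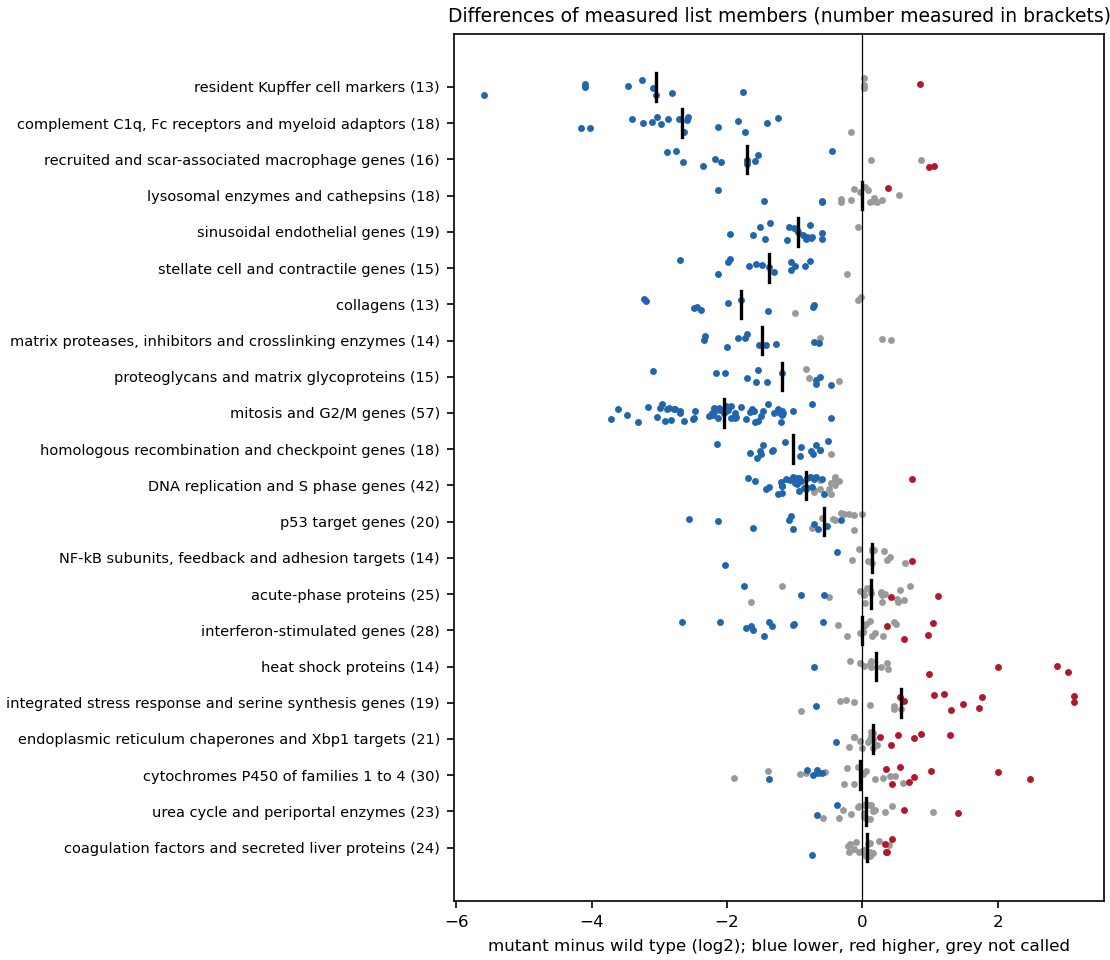
Each point is a measured member of the gene list named at the left, placed by its mutant minus wild-type difference in log2; blue was called lower, red higher, grey not called, and black bars are list medians. The C1q and Fc receptor, collagen, proteoglycan and mitosis lists lie wholly to the left of 0. In the Kupffer list 9 of 13 members lie below 0, and in the recruited macrophage list 12 of 16. The integrated stress response list has its median at 0.57, and lists of hepatocyte enzymes centre near 0.

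Cell division genes were lower, with medians that differed between phases of the cycle; the difference between the phases was not tested. Every one of 57 measured genes of mitosis and G2/M was lower (median -2.04, range -3.71 to -0.47; 56 with arrays centred, 53 to 56 with 1 array left out, 50 with the Gapdh covariate). Of 42 DNA replication and S phase genes 29 were lower and 1 higher (median -0.84; 16 lower with the Gapdh covariate). Of 14 G1 cyclins, kinases and inhibitors 7 were lower and 1 higher (median -0.42). Nusap1, which binds spindle microtubules, was at 9.22, 8.7, 9.89 and 9.47 on the wild-type arrays and 6.52, 6.54, 5.04 and 4.74 on the mutant arrays. The groups did not overlap, and mutant arrays 10 and 11 were lower than 8 and 9; the decrease was 12.2-fold (difference -3.61, SE 0.79, adjusted p = 0.00343). Untreated arrays were at 1.46 to 2.14, so the mutant livers stood well above untreated ones, and the antibiotic arrays covered 3.69 to 8.52.

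Hmmr, which organises spindle poles, was at 9.09, 8.69, 9.74 and 9.51 on the wild-type and 6.57, 6.98, 5.81 and 4.42 on the mutant arrays, 9.94-fold lower (adjusted p = 0.0019). Ttk, the kinase of the spindle checkpoint, was at 8.44, 8.4, 9.21 and 8.98 and 5.71, 6.51, 5.53 and 4.6, 9-fold lower (adjusted p = 0.000211). Neither overlapped. Ccnb2, the B-type cyclin of mitotic entry, was at 8.49, 7.99, 9.85 and 8.98 on the wild-type arrays and 6.77, 7.75, 5.22 and 4.79 on the mutant arrays, a wider mutant spread in which array 9 came closest to the wild type (6.48-fold, adjusted p = 0.0226). The call on Ccnb2 was lost without array 6, 7, 10 or 11 (adjusted p 0.0513 to 0.0667) and with the Gapdh covariate (0.159).

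The stretches before the start sites of these 3 genes are shown because genes of this phase often share CCAAT boxes, bound by the factor NF-Y, and the cell cycle homology element TTTGAA. The sequences are RefSeq's, build GRCm38.p6, 250 bases up to the start site on the gene's strand, 5′ to 3′, with CCAAT or TTTGAA on either strand (ATTGG or TTCAAA in reverse) in capitals; the motifs do not overlap each other in them.
Hmmr (chr11:40733438-40733687, minus strand): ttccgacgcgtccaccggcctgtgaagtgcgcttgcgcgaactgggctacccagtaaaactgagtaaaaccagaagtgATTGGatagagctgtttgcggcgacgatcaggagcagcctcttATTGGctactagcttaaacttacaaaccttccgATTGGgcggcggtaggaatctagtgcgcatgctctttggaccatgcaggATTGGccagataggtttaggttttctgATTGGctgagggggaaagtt
Ttk (chr9:83834439-83834688, plus strand): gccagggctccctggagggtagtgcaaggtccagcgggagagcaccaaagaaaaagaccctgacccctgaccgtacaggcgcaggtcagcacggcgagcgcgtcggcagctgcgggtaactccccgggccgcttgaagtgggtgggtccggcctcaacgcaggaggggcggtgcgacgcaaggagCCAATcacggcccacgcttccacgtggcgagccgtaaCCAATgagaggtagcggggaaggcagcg
Ccnb2 (chr9:70421555-70421804, minus strand): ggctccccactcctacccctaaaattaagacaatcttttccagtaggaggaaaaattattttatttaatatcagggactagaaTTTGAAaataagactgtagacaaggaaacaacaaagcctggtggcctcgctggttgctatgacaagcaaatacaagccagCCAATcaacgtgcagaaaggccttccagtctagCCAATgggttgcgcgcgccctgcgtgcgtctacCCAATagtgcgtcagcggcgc
Hmmr held 5 CCAAT matches and Ttk 2, both with 0 TTTGAA matches, and Ccnb2 held 3 and 1. Of 57 measured mitosis genes 47 had a promoter in the RefSeq table, 34 of them with CCAAT and 18 with TTTGAA in this window. Over the 51 promoters listed for them, 74.5% held CCAAT and 37.3% TTTGAA, against 33.8% and 16% of all 32851 promoters of the same length. These matches describe letters, and no binding was measured here.

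Replication genes fell by less. Rrm2, a subunit of ribonucleotide reductase, was at 13.17, 12.92, 12.9 and 12.97 on the wild-type and 11.11, 11.26, 11.65 and 11.17 on the mutant arrays, 3.23-fold lower with no overlap (adjusted p = 0.00016) and far above the untreated range of 4.87 to 5.66. Mcm2, a subunit of the replicative helicase, was at 8.72, 9.04, 8.6 and 8.74 and 7.86, 8.48, 8.76 and 8.34; array 10 lay within the wild-type range and the difference of -0.41 (SE 0.2) did not pass (adjusted p = 0.139). Mcm10, a replication initiation factor, was the member called higher (0.73, SE 0.15, adjusted p = 0.00241). Its level was highest in untreated liver (10.76 to 11.07), unlike Rrm2 and Mcm2. Of 18 homologous recombination and checkpoint genes 17 were lower (median -1.03; 9 with the Gapdh covariate), Rad54l at least 4.16-fold (adjusted p = 0.000157) and Brca1 2.49-fold (adjusted p = 0.00168).

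Myc, the transcription factor that drives growth, was the G1 list member that was higher, at 7.06, 6.97, 5.94 and 6.45 on the wild-type arrays and 8.46, 8.02, 7.71 and 7.72 on the mutant arrays. The mutant arrays lay above all treated wild-type arrays (2.59-fold, adjusted p = 0.00572), and untreated arrays were at 8.02 to 9.7. Cdkn1a, the p53-induced inhibitor p21, was near background in untreated liver (2.13 to 3.25) and at 11.5, 10.26, 10.07 and 10.61 on the wild-type and 9.0, 9.15, 10.16 and 9.89 on the mutant arrays. Array 10 overlapped the wild type, and the decrease (-1.06, SE 0.33, adjusted p = 0.0247) was not called without array 4, 7, 8 or 9 (adjusted p 0.0516 to 0.0808) or with the Gapdh covariate (0.101). Of 20 measured p53 target genes 10 were lower, 0 higher (median -0.56; 6 lower with the Gapdh covariate). Psrc1 fell at least 4.79-fold (adjusted p = 4.47e-05) and Phlda3, an inhibitor of Akt signalling, at least 4.31-fold (adjusted p = 0.000735), whereas Mdm2, the ubiquitin ligase for p53, was not called (-0.41, SE 0.2, adjusted p = 0.139).

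**Figure D4:**
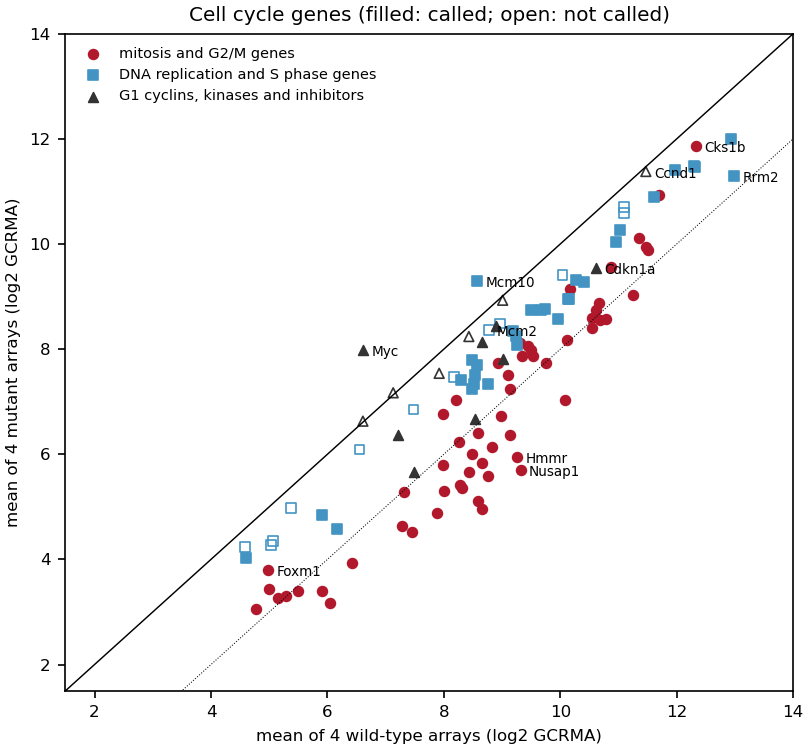
Mean log2 GCRMA level on the 4 mutant arrays against that on the 4 wild-type arrays for mitosis genes (red circles), replication genes (blue squares) and G1 genes (black triangles), filled where called; the solid line marks equal levels and the dotted line a 4-fold lower mutant level. Many mitosis genes lie below the dotted line, no replication gene does, and Myc and Mcm10 lie above the solid line.

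The EGF receptor family moved both ways, with Hbegf the member that differed most. Its counts stand beside 13.2% of all genes called higher and 17.6% called lower. Hbegf, a membrane-bound ligand of the EGF receptor, was at 4.16, 3.86, 4.4 and 4.76 on the wild-type arrays and 7.85, 7.48, 6.97 and 7.31 on the mutant arrays. The mutant arrays lay above every other array of the series (untreated 2.05 to 3.14, antibiotic 4.82 to 6.87), at least 8.41-fold above the treated wild type (adjusted p = 2.86e-05). Of 11 measured EGF receptor family genes and ligands 2 were higher (Hbegf and Lrig1) and 4 lower (Btc, Nrg4, Adam17 and Adam10; 1 without array 8, 2 without array 4, 6 or 9 and 2 with the Gapdh covariate). The calls on Nrg4 (lost without any one of arrays 4 to 9), Adam17 (arrays 4, 6, 8 and 9) and Btc (array 8) gave adjusted p 0.0513 to 0.129, 0.0582 to 0.0885 and 0.0557 there. The Gapdh covariate ended the calls on Nrg4 (adjusted p = 0.153) and Adam17 (0.19). Btc lay under 4 on every mutant array, and its call was also lost with values under 4 set to 4. Egfr itself was at 11.39, 11.47, 11.84 and 11.36 on the wild-type and 11.48, 11.82, 11.48 and 11.55 on the mutant arrays, not called (difference 0.06, SE 0.18, adjusted p = 0.826), and the ligand Ereg was below the filter (2.94 to 3.98 and 2.48 to 2.69). Lrig1, which restrains EGF receptors, was 1.87-fold higher (adjusted p = 0.00127). Sprr1a, a protein of stressed epithelia, was at 8.25, 8.37, 6.77 and 7.73 on the wild-type and 11.7, 11, 9.95 and 11.17 on the mutant arrays. No arrays overlapped (9.03-fold, adjusted p = 0.000143); untreated arrays were at 3.0 to 3.4 and antibiotic arrays at 9.32 to 11.18. Keratins 8, 18 and 19 were not called.

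Of 22 measured immediate early genes 5 were higher and 2 lower, beside 13.2% and 17.6% of all genes. The higher count was 3 with the Gapdh covariate. The lower count was 1 with that covariate or without array 4, 5, 7, 8, 9 or 10. Ier3, a survival factor of stressed cells, was at 6.42, 6.51, 5.77 and 6.47 on the wild-type arrays and 10.06, 8.49, 7.55 and 9.13 on the mutant arrays, 5.71-fold higher without overlap (adjusted p = 0.000345). Klf4, a zinc finger factor, was at 6.59, 6.1, 6.17 and 6.06 and 8.59, 8.23, 6.75 and 8.7, 3.57-fold higher (adjusted p = 0.0012), with array 10 the lowest of the mutant. Fos, Jun, Junb and Egr1 were not called.

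Heat shock genes held a few strongly higher members, and their counts stand beside 13.2% of all genes called higher and 17.6% called lower. Of 14 measured members 4 were higher (Hspa1a, Hspa1b, Hspb1 and Hsph1), 1 (Cryab) was lower and 9 were not called. The Gapdh covariate left 2 higher and ended the calls on Hsph1 (adjusted p = 0.099) and Hspa1a (0.0545). Hspb1, a small chaperone, was at 7.13, 7.12, 5.27 and 6.51 on the wild-type arrays and 10.81, 9.94, 8.49 and 8.96 on the mutant arrays. Arrays 8 and 9 were the highest, and no mutant array overlapped any other array of the series; the increase was 8.22-fold (difference 3.04, SE 0.64, adjusted p = 0.00249). Hspa1b, an inducible Hsp70, was at 10.11, 8.95, 8.22 and 8.8 and 11.79, 12.09, 11.17 and 12.55, 7.36-fold higher (adjusted p = 0.000117). Untreated arrays were at 9.09 to 9.73, below all mutant arrays. Hspa1b and Hspa1a are near-identical copies whose signals may not be separate. The call on Hspa1a was lost without array 5, 6, 7, 9 or 11 (adjusted p 0.0986 to 0.141). On the wild-type arrays other than array 4, Hspa1a lay at 2.13 to 2.5, under the background level of 4. Its call was also lost with values under 4 set to 4, with no filter and with the 8 arrays alone. Hspa5, the chaperone of the endoplasmic reticulum, was not called (0.09, SE 0.09, adjusted p = 0.431).

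Heat shock genes are switched on by Hsf1 through inverted repeats of GAA units. The windows of both genes are therefore shown as above, with GAANNTTC in capitals. This motif is a pair of such units, a part of the repeat, and reads the same on both strands.
Hspb1 (chr5:135887669-135887918, plus strand): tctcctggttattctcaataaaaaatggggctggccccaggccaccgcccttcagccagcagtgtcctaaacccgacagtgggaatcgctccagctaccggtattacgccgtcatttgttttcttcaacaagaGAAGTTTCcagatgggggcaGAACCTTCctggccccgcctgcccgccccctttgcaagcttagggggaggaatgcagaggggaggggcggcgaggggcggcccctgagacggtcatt
Hspa1b (chr17:34959239-34959488, minus strand): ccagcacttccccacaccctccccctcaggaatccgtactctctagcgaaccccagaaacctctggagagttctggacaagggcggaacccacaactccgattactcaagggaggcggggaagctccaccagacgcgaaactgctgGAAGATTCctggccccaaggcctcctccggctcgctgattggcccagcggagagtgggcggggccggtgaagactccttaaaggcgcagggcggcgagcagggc
Hspb1 held 2 matches and Hspa1b 1. Of 14 measured heat shock genes 10 had a listed promoter and 6 held a match in at least 1 of them, members that were not called among them. The motif was in 40.0% of their 15 listed promoters and in 6.69% of all promoters.

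Genes of the integrated stress response, in which phosphorylation of eIF2 raises translation of Atf4, were called higher more often than lower. Of 19 measured genes of this response and of serine synthesis 10 were higher, 1 (Aldh18a1) was lower and 8 were not called. The median was 0.57 and 5 differences were below 0, beside 13.2% of all genes called higher. Aldh18a1 was not called with the Gapdh covariate. The higher count was 9 with that covariate, 8 to 11 with 1 array left out and 4 against a 1.5-fold change. Nupr1, a small nuclear stress protein, was at 4.86, 3.83, 4.07 and 3.82 on the wild-type arrays and 9.87, 6.9, 5.24 and 7.06 on the mutant arrays. Array 8 stood highest and array 10 lowest, with no overlap with the wild type (at least 8.19-fold, adjusted p = 0.00378). Phgdh, the first enzyme of serine synthesis, was near background in untreated liver (2.3 to 2.59), at 6.93, 4.99, 6.29 and 6.16 on the wild-type arrays and at 10.17, 9.87, 7.7 and 9.15 on the mutant arrays. Array 10 was again the lowest of the mutant and above all wild-type arrays (8.74-fold, adjusted p = 0.000641).

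Trib3, a pseudokinase that feeds back on Atf4, was at 4.56, 4.7, 5.27 and 4.74 on the wild-type and 7.27, 6.91, 5.62 and 6.38 on the mutant arrays, 3.32-fold higher (adjusted p = 0.000728). Slc3a2, the shared chain of several amino acid transporters, was at 7.91, 7.43, 7.49 and 7.37 and 10.34, 8.99, 8.75 and 9.21, 3.42-fold higher (adjusted p = 0.000437), above all 11 wild-type arrays. Chac1, which breaks down glutathione, was 2.48-fold higher (adjusted p = 0.00618) and at 6.3, 6.67, 5.23 and 6.65 on the mutant arrays, beside 5.61 to 6.75 untreated. Atf3, a stress-induced transcription factor, was higher by 1.21 (SE 0.38, adjusted p = 0.0255), not called without array 5, 6, 8 or 11 (adjusted p 0.0599 to 0.0758). Atf4 itself, which is controlled mainly in translation, was at 9.43, 10.1, 10.21 and 9.71 on the wild-type and 10.65, 10.64, 9.76 and 10.7 on the mutant arrays. Array 10 overlapped the wild type and the difference of 0.57 (SE 0.22) was not called (adjusted p = 0.0638; 0.006 without array 10 and 0.0431 without array 6). Asns, an asparagine synthetase that Atf4 induces, was not called (0.47, SE 0.72, adjusted p = 0.659).

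The element through which Atf4 and C/EBP factors act reads TGATGNAA. The windows of 3 higher genes that hold it are shown, with that motif or its reverse TTNCATCA in capitals.
Nupr1 (chr7:126625471-126625720, minus strand): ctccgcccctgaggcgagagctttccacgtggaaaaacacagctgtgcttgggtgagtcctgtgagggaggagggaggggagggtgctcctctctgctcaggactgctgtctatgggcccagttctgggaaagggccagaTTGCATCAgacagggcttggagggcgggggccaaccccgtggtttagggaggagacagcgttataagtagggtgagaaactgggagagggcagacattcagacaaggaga
Chac1 (chr2:119350992-119351241, plus strand): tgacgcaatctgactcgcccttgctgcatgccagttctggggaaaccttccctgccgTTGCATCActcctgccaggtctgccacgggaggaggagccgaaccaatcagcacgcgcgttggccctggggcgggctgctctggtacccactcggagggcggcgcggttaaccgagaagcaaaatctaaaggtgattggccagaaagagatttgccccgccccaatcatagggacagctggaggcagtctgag
Atf3 (chr1:191183334-191183583, minus strand): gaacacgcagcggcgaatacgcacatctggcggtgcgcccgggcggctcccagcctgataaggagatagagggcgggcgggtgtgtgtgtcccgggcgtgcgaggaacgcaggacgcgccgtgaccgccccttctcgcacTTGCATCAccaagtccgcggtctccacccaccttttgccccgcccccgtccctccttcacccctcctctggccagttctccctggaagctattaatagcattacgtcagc
Each held 1 match. Of 19 measured genes 18 had a listed promoter and 4 held the motif, Asns among them, so the motif was found in both called and uncalled genes. It was in 19% of their 21 listed promoters and in 3.45% of all promoters.

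Endoplasmic reticulum chaperones and Xbp1 targets moved less. Of 21 measured members 6 were higher and 1 (Edem1) lower, beside 13.2% and 17.6% of all genes. The higher count was 3 without array 7, and the lower count 0 without array 4, 7, 8 or 9. Hyou1, a large chaperone, was higher by 0.87 (SE 0.16, adjusted p = 0.00121). Of 29 aminoacyl-tRNA synthetase genes 7 were higher and 2 lower, beside the same shares of all genes (4 higher with the Gapdh covariate, 4 lower without array 6). Sars, which charges the serine tRNA, was at 9.27, 9.06, 8.75 and 8.96 on the wild-type and 10.28, 9.84, 9.62 and 9.82 on the mutant arrays, 1.84-fold higher without overlap (adjusted p = 0.00059).

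**Figure D5:**
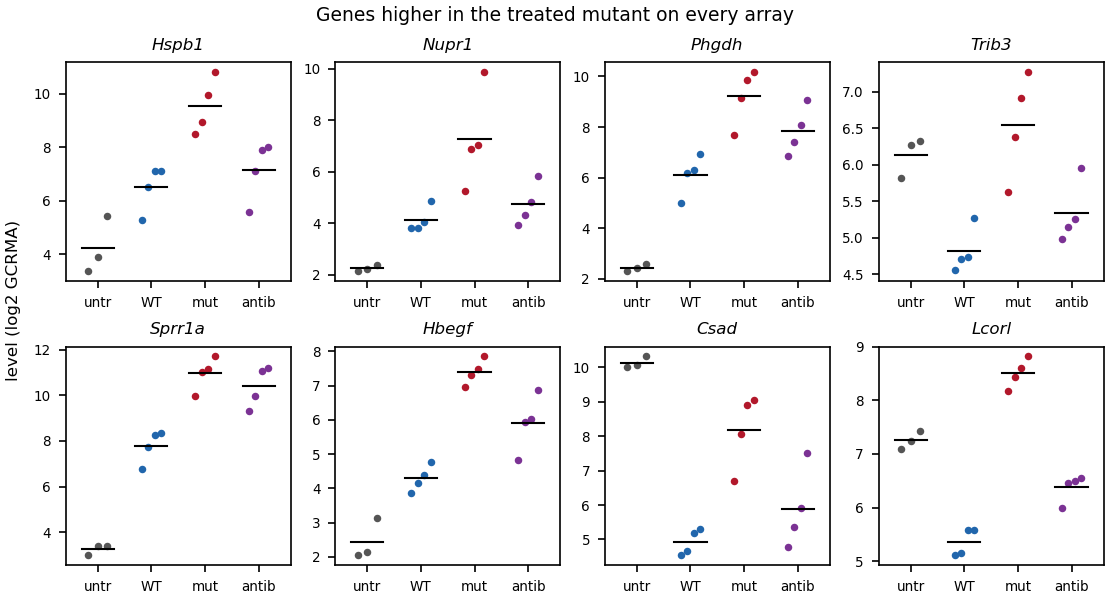
Log2 GCRMA level on every array for 8 genes called higher in the treated mutant; groups are untreated wild type (untr, 3 arrays), treated wild type (WT, 4), treated mutant (mut, 4) and antibiotic plus treatment (antib, 4), and bars are group means. Mutant arrays lie above treated wild-type arrays in every panel, while for Csad, Trib3 and Lcorl the untreated arrays are also above the treated wild type.

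Most genes of the hepatocyte function lists were not called. Alb, which encodes albumin, was at 14.81, 14.54, 14.67 and 14.69 on the wild-type and 14.77, 14.76, 14.78 and 14.62 on the mutant arrays (difference 0.06, SE 0.09, adjusted p = 0.666), and Hnf4a, a master regulator of hepatocyte genes, differed by 0.16 (SE 0.09, adjusted p = 0.188). Both sets of arrays overlapped. Of 23 urea cycle and periportal enzymes 2 were lower, 2 higher and 19 not called (0 lower with the Gapdh covariate, 1 lower without any one of arrays 4 to 9). Of 24 coagulation factors and secreted proteins 1 was lower, 4 were higher and 19 were not called; the higher count was 1 without array 5, 8 or 9, 2 without array 4 or 7 and 0 with the Gapdh covariate. Among 85 respiratory chain genes 4 were lower and 4 higher, beside 17.6% and 13.2% of all genes. With the Gapdh covariate 1 was lower and 2 were higher; 1 was lower without array 5, 7, 8 or 9, 1 was higher without array 4, 5, 7 or 8, and 2 were lower and 8 higher with arrays centred. Of 30 cytochromes P450 of families 1 to 4, 6 were lower, near the 17.6% of all genes, and 8 higher, beside 13.2% (3 lower without array 7 or with the Gapdh covariate, and 5 higher without array 4, 7 or 9).

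Some single metabolic genes differed more. Csad, the enzyme that commits cysteine sulphinate to taurine, was at 10.0 to 10.32 on the untreated arrays, 4.54, 5.31, 5.19 and 4.66 on the treated wild-type arrays and 8.91, 9.06, 6.69 and 8.06 on the mutant arrays. The mutant lay between the other groups without overlap, 9.55-fold above the treated wild type (adjusted p = 0.000474). Bhmt, which remethylates homocysteine with betaine, was at 14.33, 14.3, 14.4 and 14.47 on the wild-type and 11.27, 12.84, 13.95 and 12.76 on the mutant arrays. Array 8 was the lowest and array 10 the closest to the wild type, and all were below the 11 wild-type arrays (3.18-fold, adjusted p = 0.0033). Cyp2j9, an arachidonic acid epoxygenase, was at 3.66, 4.25, 3.86 and 4.18 and 7.62, 6.79, 5.33 and 6.14, at least 5.14-fold higher (adjusted p = 0.000177), beside 6.27 to 6.71 untreated.

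Transporters of sterols and bile acids were called in both directions. Of 27 measured bile acid genes 3 were higher (Abcc4, Nr0b2 and Fgfr4) and 1 lower, and of 26 cholesterol genes 2 were higher (Abcg5 and Abcg8) and 3 lower (Lss, Sc5d and Abcg1), shares below the 13.2% and 17.6% of all genes. The lower cholesterol count was 1 with the Gapdh covariate or without array 4, 5, 6, 9 or 10, where Lss and Sc5d lost their calls (adjusted p 0.0869 to 0.131 and 0.0547 to 0.105 without those arrays), and 5 without array 11. Abcg1, a sterol exporter of macrophages and other cells, was at 7.26, 6.86, 7.0 and 6.63 on the wild-type and 5.43, 5.62, 6.03 and 5.67 on the mutant arrays, 2.39-fold lower without overlap (adjusted p = 7.83e-05). Abcc3, a basolateral exporter of bile acids, was the lower bile acid gene (-0.51, SE 0.16, adjusted p = 0.0293), with overlapping arrays; the call was lost without array 5, 7, 8, 9 or 11 (adjusted p 0.0647 to 0.0972), 3 bile acid genes were lower without array 10, and the call was also lost with the Gapdh covariate (0.197). Abcg8, a subunit of the canalicular sterol exporter, was at 4.99, 4.31, 3.89 and 4.24 on the wild-type and 7.01, 5.78, 6.28 and 6.61 on the mutant arrays, at least 4.1-fold higher without overlap (adjusted p = 0.000427), and at 6.69 to 7.0 untreated. Abcc4, a further basolateral exporter, was at 5.74, 5.56, 5.22 and 5.1 and 8.76, 7.29, 6.72 and 7.28, 4.3-fold higher (adjusted p = 0.00117). It was lowest in untreated liver (3.77 to 4.29), so its order over the groups differed from that of Abcg8. Nr0b2, the bile acid-induced repressor SHP, was 2.74-fold higher (adjusted p = 0.00739), while Cyp7a1, which starts the main route from cholesterol to bile acids, was not called (-1.12, SE 0.52, adjusted p = 0.116; 0.00843 without array 10). Pklr, the liver pyruvate kinase, was 2.43-fold higher (adjusted p = 0.00012), and Pkm, the form of proliferating and non-parenchymal cells, at least 1.91-fold lower (adjusted p = 0.00256). Igfbp2, a carrier of insulin-like growth factors, was 2.82-fold higher (adjusted p = 0.000271), and Igf1 was not called (0.07, SE 0.1, adjusted p = 0.61).

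Markers used for oncofetal change were not uniform. Of 15 measured members 8 were lower and 2 higher, beside 17.6% and 13.2% of all genes. Ly6d, a surface protein induced in damaged hepatocytes, was at 11.11, 10.78, 9.73 and 10.08 on the wild-type and 6.39, 6.74, 9.4 and 8.28 on the mutant arrays. The groups did not overlap, although array 10 came close (6.6-fold, adjusted p = 0.00165). Prom1, a progenitor and biliary marker, was higher, at 8.7, 6.32, 5.97 and 6.13 and 9.58, 7.54, 9.98 and 9.01; wild-type array 4 overlapped the mutant range (4.76-fold, adjusted p = 0.00844). Sox9, a biliary transcription factor, was at least 1.99-fold higher (adjusted p = 0.00116). Afp, the fetal albumin, was at 4.36 to 5.6 untreated, 12.35, 13.17, 11.47 and 12.2 on the treated wild-type arrays and 11.56, 11.43, 11.51 and 11.43 on the mutant arrays, and was not called (-0.82, SE 0.32, adjusted p = 0.0699; 0.0171 without array 6).

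Some genes set the mutant arrays apart from all 11 wild-type arrays, whatever their treatment. For 254 genes (2.68%) the 4 mutant arrays lay outside that whole range, 96 below and 158 above it, and 18 and 13 of these differed at least 4-fold from the treated wild type. Lcorl, a transcription factor gene tied to body size, was at 5.58, 5.11, 5.59 and 5.15 on the wild-type and 8.82, 8.61, 8.17 and 8.43 on the mutant arrays, 8.87-fold higher (adjusted p = 4.51e-08), with untreated arrays at 7.1 to 7.43. Copz2, a coat protein of vesicle transport, was at 5.63, 5.8, 6.25 and 5.25 and 2.79, 2.97, 2.93 and 2.49, and Rbks, the ribokinase, at 5.82, 5.92, 5.87 and 5.58 and 3.47, 3.23, 2.56 and 2.82. Both were lower without overlap (at least 3.33-fold and at least 3.48-fold, adjusted p = 2.37e-07 for each), and untreated arrays stood at 6.18 to 6.27 and 6.68 to 6.95. Nme7, a nucleoside diphosphate kinase relative of the centrosome, was 4.13-fold higher (adjusted p = 1.26e-06). The tested genes nearest to Tlr4 on chromosome 4 in the RefSeq order were Orm2, Atp6v1g1, Tmem268, Tnc and Trim32 on one side and Cdk5rap2, Megf9, Tle1, C630043F03Rik and Kdm4c on the other. Tnc and Cdk5rap2 were lower, Atp6v1g1 was higher by 0.35 (adjusted p = 0.0166; not called without array 7 or 8, adjusted p 0.0514 to 0.0539, or with the Gapdh covariate), and the other 7 were not called.

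Set against the antibiotic group, which shares the wild-type strain and the injury, 1165 genes (12.3%) differed in the mutant, 652 lower and 513 higher. Csf1r differed by -1.91 (adjusted p = 9.1e-05), Hgf by -2.06 (adjusted p = 0.000104) and Copz2 by -3.37 (adjusted p = 8.07e-08) in this comparison. Nusap1 (-1.02, adjusted p = 0.426), Sprr1a (0.57, adjusted p = 0.438) and Cxcl14 (-0.47, adjusted p = 0.405) were not called in it. The Gapdh control difference ran from 0.31 to 1.8 on the antibiotic arrays, wider than in either of the other treated groups.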

How the data were processed

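Liver RNA was measured on 15 one-colour Affymetrix mouse arrays. The authors deposited log2 values that had been summarised per probe set by GCRMA, per the submitters' processing notes, and no further scaling was applied here; software versions and the genome build are not given in the sources used here. Each array has 45101 probe sets; 34945 carry 1 gene symbol (18193 symbols), 932 several and 9160 none, and 64 are controls. Symbols were taken from the platform annotation and updated to RefSeq GRCm38.p6, except for 162 Entrez identifiers not in that table. Probe sets at or above log2 4 on at least 3 of 15 arrays were kept (15541), and the one with the highest mean stood for its gene (9482 genes); 3847 genes had several, and 85 had kept probe sets called in both directions. Arrays have no read depth; on each array 34.6 to 36.7% of probe sets reached log2 4, and the number of arrays limits the precision.

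Group means were fitted over all 15 arrays with limma 3.58.1 in R 4.3.3 (11 residual and 3.4 prior degrees of freedom). Benjamini-Hochberg adjustment was over all 9482 genes, with a threshold of 0.05. An adjusted p in the text is from this model unless a left-out array, the Gapdh covariate or another alternative is named with it. In that case it is from the limma fit with that change. The procedure was tested on simulated data with known changes. Tables and figures used Python 3.11.15, pandas 2.3.3, numpy 2.4.6 and matplotlib 3.10.9. Alternatives were centring, quantile normalisation, a floor at 4, no filter, a filter at 6, means over probe sets, every probe set, array weights, the 8 arrays alone, a trended robust prior, a test against 1.5-fold, each array left out, and, added after seeing the data, a Gapdh 3' minus 5' covariate.

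The members and the 68 gene lists (1572 entries, 1179 distinct genes measured) were chosen with earlier results of these data known. Genes were named from the following: the 10 highest and 10 lowest called differences without overlap and with a mean of 6 or more in the higher group; up to 4 called members in each direction per list; a set of receptor, growth, liver and inflammation genes; and the 5 tested genes on each side of Tlr4. The rule sets which genes may be named, and only some of them are printed. Members described as not called, and Csf1r, Stab2, Lrat, Pdgfrb, Col3a1, Ttk, Ccnb2, Brca1, Chac1, Atf3, Il18, Irf3, Copz2, Rbks, Nme7 and Xist, were chosen after their values were seen. A label text describing a liver resection at another age contradicts the other labels and was not used.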

Additional observations from a re-analysis of the deposited data

Results flagged for a closer look

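For the genes named in the text, 1 array stood far from the other 3 of its group in 20 of 332 groups of 4 arrays (Dixon's test); chance gives about 1 in 20 groups. Wild-type array 4 accounted for 7 of them. On mutant array 10 this applied to Atf4 at 9.76 (others 10.64 to 10.7), Mndal at 6.58 (others 2.87 to 3.15) and Myd88 at 6.44 (others 6.94 to 6.99). On mutant array 11 this applied to Alb at 14.62 (others 14.76 to 14.78). On mutant array 8 this applied to Cxcl16 at 4.93 (others 4.59 to 4.61), Hnf4a at 11.58 (others 11.39 to 11.42), Ly96 at 5.62 (others 4.04 to 4.3) and Sox9 at 5.78 (others 4.75 to 4.89). On mutant array 9 this applied to Tek at 4.37 (others 4.66 to 4.7) and Trim32 at 6.2 (others 5.99 to 6.0). On wild-type array 4 this applied to Bank1 at 6.22 (others 3.86 to 4.21), Hspa1a at 4.52 (others 2.13 to 2.5), Icam1 at 7.58 (others 6.92 to 6.95), Lrig1 at 7.39 (others 8.0 to 8.1), Mdm2 at 7.07 (others 6.35 to 6.47), Phlda3 at 7.87 (others 6.38 to 6.51) and Prom1 at 8.7 (others 5.97 to 6.32). On wild-type array 5 this applied to Il18 at 6.9 (others 6.55 to 6.61). On wild-type array 6 this applied to Col3a1 at 12.2 (others 11.89 to 11.92) and Ier3 at 5.77 (others 6.42 to 6.51). Among 2133 probe sets above the filter that have no single gene symbol, which entered no comparison above, 217 were lower and 180 higher in the mutant (limma, adjusted p under 0.05; 18.6% called), with differences from -6.5 to 2.69.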

How the results depend on the processing

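The count of genes higher in the mutant was 1249 and of genes lower 1668. Against a 1.5-fold change 82 were higher and 466 lower. With every probe set tested on its own 1946 were higher and 2497 lower. The Gapdh covariate gave 757 higher, 673 of them among the 1249, and 1160 lower, 1127 of them among the 1668; the cause was not tested. With 1 array left out, 863 to 1253 genes were higher and 1381 to 1697 lower. The other alternatives stayed within 1.5 times of both counts. Against the antibiotic group the count was 1165, 1179 with arrays centred and 1227 after quantile normalisation. Of 120 called genes named in the text, 97 kept their call under every alternative except the 1.5-fold test and the Gapdh covariate, 53 lost it against 1.5-fold, 17 with the Gapdh covariate and 19 without at least 1 array; 11 genes that were not called passed under some alternative. Cfp reversed to -0.7 and Ikbkg to -0.31 with means over probe sets; for both, averaging adds other probe sets of the gene to the one used. No paired analysis was possible because the groups share no replicate numbers. A signal under log2 4 is not separable from background, which limits Tlr4 and the cytokines.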
